A study of Mus musculus with 6 samples.

Results

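Mouse lung alveolar organoid cells kept flat in the medium called FNHCS were compared with the same cells kept in 3 dimensions in that medium. The 4 libraries of this comparison were chosen by their column names and treatment labels, from 6 libraries in all, and every gene of the table entered the analysis. The 2D FNHCS group held 2 libraries, 1 of the cell line SN3593 and 1 of SN3595, and the 3D FNHCS group, labelled as the control, held 1 of each line too. A further pair of libraries, from flat culture with 10% fetal bovine serum in another medium, Ad-DMEM F/12 (2D FBS), entered the fit to estimate the spread between libraries and is not described further. Both lines carry Sftpc-eGFP, in which green fluorescent protein marks cells that use the surfactant protein C gene. Before the treatment all cells were held in FNHCS in drops of 90% matrigel, a basement membrane gel, so the groups differ in the 7 days that followed. Both groups were at 37 °C with 5% CO2 and ambient oxygen. The sample titles mark the 3D FNHCS libraries as type II cells and the 2D FNHCS libraries as a mixture of AT2 and AT1. The labels name the lines and do not tie them to separate animals, and they do not say whether these cells were sorted by their fluorescence. The p-values therefore measure the spread between these cultures of 2 lines, part of which may be technical.

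Alveolar type 2 (AT2) cells secrete surfactant, a film of lipid and protein stored in lamellar bodies that lowers surface tension. They also act as progenitors of alveolar type 1 (AT1) cells, the thin cells that share a basement membrane with the capillaries and across which gas is exchanged. Genes for glucose uptake and glycolysis are shared targets of several regulators, among them the hypoxia-inducible factors (HIF), whose alpha subunits are marked for destruction by the prolyl hydroxylases Egln1, Egln2 and Egln3 when oxygen is present. In bulk RNA, fewer cells of a type and less RNA per cell cannot be told apart, and this applies to every gene below.

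Counts are given as CPM, in which each count is set against the total of its library and libraries are scaled by TMM factors. For each culture the SN3593 library comes first and the SN3595 library second. A gene was called where the adjusted p (edgeR's quasi-likelihood test, Benjamini-Hochberg) was below 0.05, and only called genes are said to have risen or fallen in 2D FNHCS relative to 3D FNHCS. Of 14416 genes tested, 2652 were called, which is 18.4%. Higher in 2D FNHCS were 1244 genes (8.63%), and lower were 1408 genes (9.77%). The libraries of the 2 cultures did not overlap for 9185 genes (63.7%), and counts of list members without overlap are to be read against that share. With the line as a further term in the fit, 4181 genes were called (29.0%), of which 2641 were also called without it. In that fit 14.2% of tested genes were called higher and 14.8% lower, the shares for list counts with the line in the fit. Without the SN3593 or the SN3595 library in 3D, 565 and 802 genes were called. Without the SN3593 or the SN3595 library in 2D there were 1869 and 1283, and without a 2D FBS library 1806 and 1810. Of the 2652 genes, 421 were called in every one of the 6 fits that left out 1 library, 146 higher and 275 lower. Genes named below with values as higher or lower were called in each of those 6 fits unless the paragraph gives the exception. Counts of the members of a list that rose or fell are from the fit of all 6 libraries, and many of those members lost their call in a fit without 1 library. Total counts ran from 33634368 to 43334665 per library, and the ribosomal precursor Rn45s took 0.50% and 0.679% of counts in 2D FNHCS and 1.60% and 1.03% in 3D FNHCS. The 2D FNHCS library of SN3593 had at least 1 count for 20097 genes, against 17939 to 18804 in the other 5 libraries. The median log2 difference over all tested genes was 0.03 with TMM scaling and 0.19 when libraries were scaled by their totals alone. That scaling made 62.4% of calls higher in 2D FNHCS, against 46.9% with TMM.

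**Figure D1:**
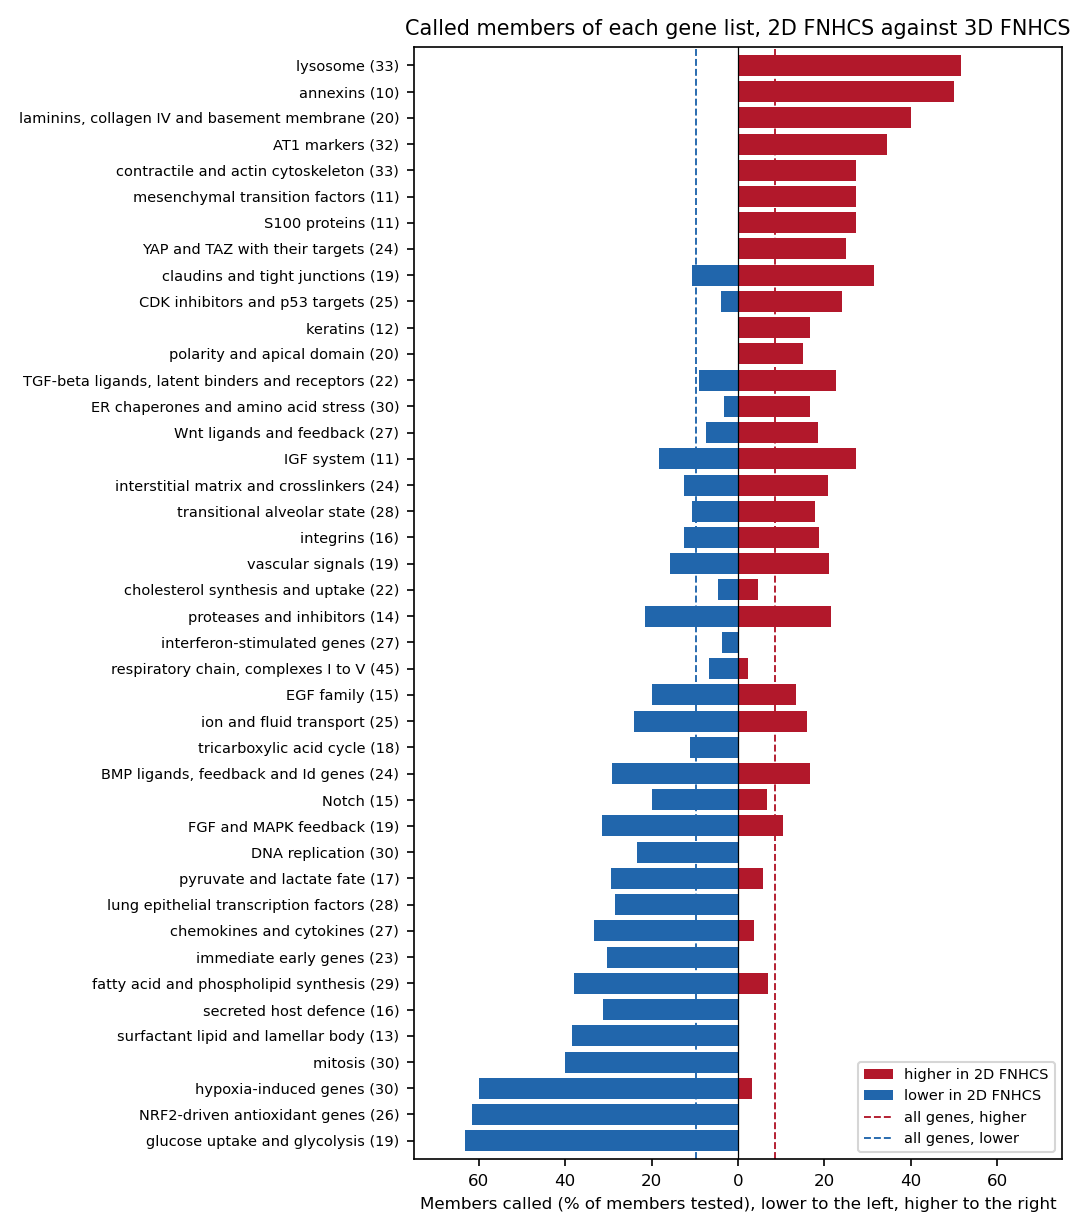
Share of the tested members of each gene list with at least 10 tested members (rows, with the number tested) that were called higher (right) or lower (left) in 2D FNHCS than in 3D FNHCS, in percent, with dashed lines at the shares over all tested genes (8.63% higher and 9.77% lower). Among these lists, those for glycolysis, NRF2-driven genes and hypoxia-induced genes reach farthest to the left, and those for the lysosome, annexins and basement membrane reach farthest to the right.

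The AT2 programme did not move as a block. Sftpc, which encodes surfactant protein C and drives the reporter, stood at 51430 and 40990 CPM in 2D FNHCS and at 33500 and 41010 CPM in 3D FNHCS. The cultures overlapped, and the log2 difference of 0.31 ± 0.419 (SE) was not called (adjusted p = 0.626). Sftpa1, for the collagen-like surfactant protein A, had 950 and 1337 CPM in 2D FNHCS and 8126 and 14090 CPM in 3D FNHCS. Sftpb, for the hydrophobic surfactant protein B that spreads the lipid film, had 86.5 and 101 CPM in 2D FNHCS and 455 and 702 CPM in 3D FNHCS. Both were lower in each 2D FNHCS library than in either 3D FNHCS library, with log2 differences of -3.28 ± 0.423 (adjusted p = 0.00864) and -2.62 ± 0.326 (adjusted p = 0.00789). Sftpd had 1593 and 2891 CPM in 2D FNHCS and 4924 and 5595 CPM in 3D FNHCS, without overlap, and was not called (adjusted p = 0.153).

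Genes of proteins that build and load lamellar bodies fell in flat culture or were not called. Lamp3, a lamellar body membrane protein, had 226 and 261 CPM in 2D FNHCS and 1249 and 1949 CPM in 3D FNHCS, and fell by 2.71 ± 0.345 on the log2 scale (adjusted p = 0.00843). Abca3, the transporter that pumps phospholipid into lamellar bodies, had 115 and 169 CPM in 2D FNHCS and 362 and 477 CPM in 3D FNHCS. Its adjusted p was 0.0154, and 0.0681 without the SN3595 library in 3D. Slc34a2, the phosphate carrier of the AT2 surface, had 516 and 458 CPM in 2D FNHCS and 2178 and 4364 CPM in 3D FNHCS. Its adjusted p was 0.0167, and it was not called without the SN3595 library in 3D (0.0575) or the SN3595 library in 2D (0.0664). Of 13 tested genes for surfactant lipid and the lamellar body, 5 fell and none rose by edgeR's test, with a median log2 difference of -1.25. With the line in the fit 9 fell and 1 rose, and between 1 and 6 were called without 1 library, fewest without the SN3595 library in 3D.

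Secreted host defence genes held some of the largest falls among AT2 products. Lyz1, a lysozyme that digests bacterial walls, had 322 and 217 CPM in 2D FNHCS and 14220 and 13710 CPM in 3D FNHCS, a log2 difference of -5.69 ± 0.381 (adjusted p = 0.00292). Its close relative Lyz2, the usual AT2 and macrophage lysozyme, had 59.6 and 127 CPM in 2D FNHCS and 100 and 1566 CPM in 3D FNHCS, and it was not called (adjusted p = 0.131). Reads shared by the pair were divided by a model, so the value of each is uncertain. The alarmin Il33 had 2.07 and 1.85 CPM in 2D FNHCS and 239 and 88.7 CPM in 3D FNHCS. The secreted glycoprotein Lrg1 had 0.414 and 2.58 CPM in 2D FNHCS and 111 and 538 CPM in 3D FNHCS. Of 16 tested genes in this list 5 fell and 11 were not called, and with the line in the fit 9 fell and 1 rose. As few as 3 fell without 1 library, which was the SN3595 library in 3D.

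Transcription factors of the lung epithelium fell or were not called. Nkx2-1, the lineage factor of the lung, was not called. Id2, an inhibitor of basic helix-loop-helix factors found in distal lung progenitors, had 48.1 and 45.6 CPM in 2D FNHCS and 974 and 939 CPM in 3D FNHCS, and fell by 4.35 ± 0.201 on the log2 scale (adjusted p = 0.00266). Cebpa, needed for AT2 maturation, had 11.1 and 9.83 CPM in 2D FNHCS and 64.7 and 82.8 CPM in 3D FNHCS. The epithelial ETS factors Elf3 and Elf5 fell too, with log2 differences of -2.02 and -3.49, and the stress-responsive Cebpd was at -1.87. Of 28 tested factors 8 fell and none rose, and the median was -0.41. With the line in the fit 11 fell and 1 rose, and as few as 5 fell without 1 library, which was the SN3593 library in 3D.

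AT1 markers rose in flat culture or were not called. Ager, the receptor abundant on the basal face of AT1 cells, had 2083 and 4785 CPM in 2D FNHCS and 326 and 243 CPM in 3D FNHCS, a log2 difference of 3.59 ± 0.501 (adjusted p = 0.00993). Col4a3, a collagen IV chain that AT1 cells lay down in their basement membrane, had 649 and 1322 CPM in 2D FNHCS and 62.0 and 27.2 CPM in 3D FNHCS (log2 4.46 ± 0.56, adjusted p = 0.00811). Igfbp2, a binder of insulin-like growth factors used as a marker of mature AT1 cells, had 596 and 519 CPM in 2D FNHCS and 6.31 and 1.45 CPM in 3D FNHCS. For each of these genes both 2D FNHCS libraries were above both 3D FNHCS libraries. Scnn1g, a subunit of the epithelial sodium channel, had 244 and 821 CPM in 2D FNHCS and 19.1 and 10.0 CPM in 3D FNHCS. Cldn18, a claudin of alveolar tight junctions, had 1479 and 3792 CPM in 2D FNHCS and 385 and 321 CPM in 3D FNHCS. Ager lost its call without the SN3593 library in 3D (adjusted p = 0.0573) or the SN3595 one (0.057), Scnn1g without the same libraries (0.0544 and 0.0589), and Cldn18 likewise (0.0923 and 0.096). Aqp5 had 918 and 1910 CPM in 2D FNHCS and 1215 and 1143 CPM in 3D FNHCS, with overlap (adjusted p = 0.645). It was lower in flat culture in SN3593 and higher in SN3595. Pdpn had 0.207 and 4.365 CPM in 2D FNHCS and 0.0288 and 0.454 CPM in 3D FNHCS, with overlap (adjusted p = 0.199). Neither Aqp5 nor Pdpn was called. Of 32 tested AT1 markers 11 rose and none fell, with a median log2 difference of 2.24 against 0.03 over all genes. With the line in the fit 17 rose. Between 2 and 22 were called without 1 library, fewest without the SN3595 library in 3D.

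**Figure D2:**
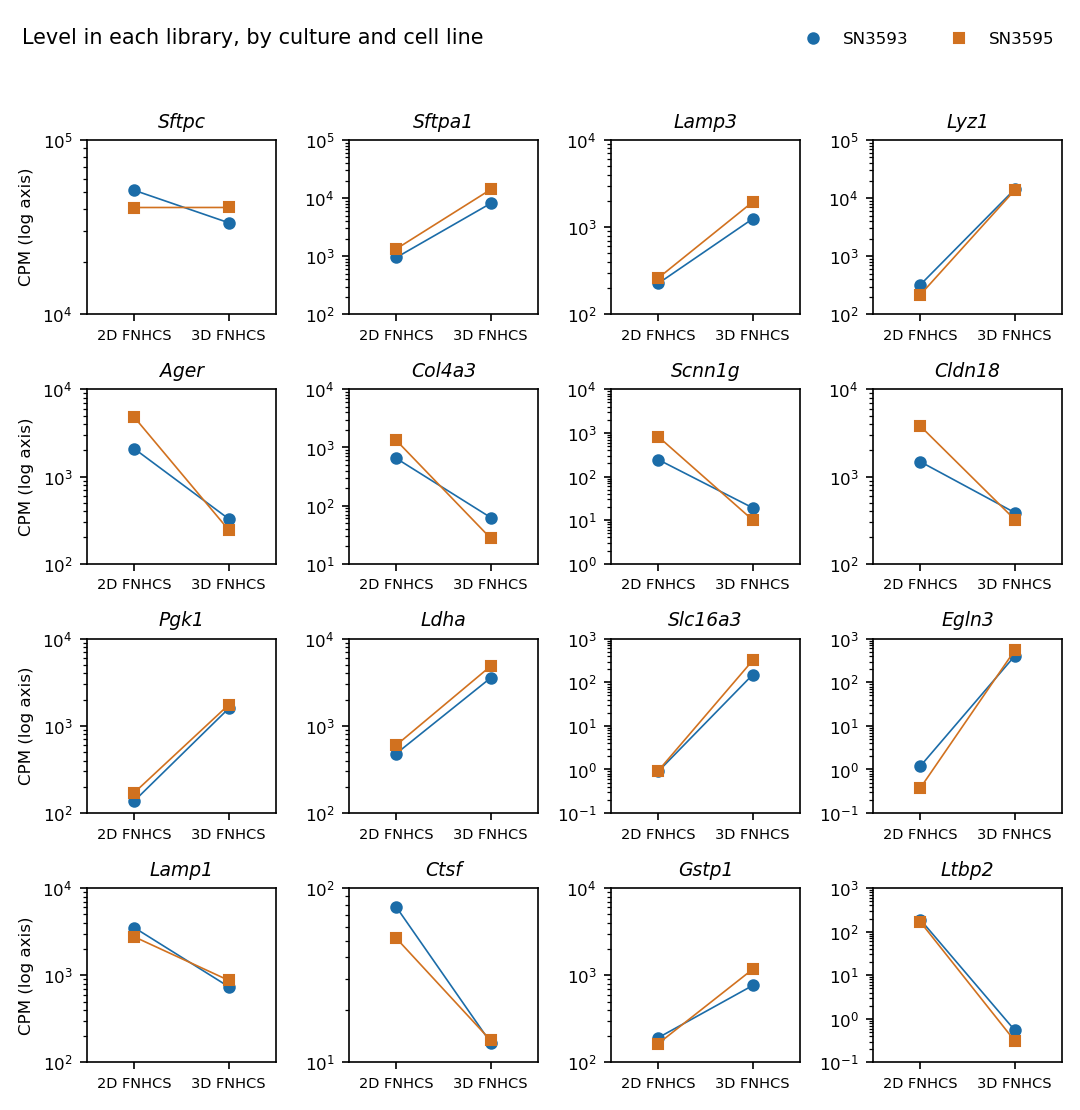
CPM on a log axis for 16 genes in the 2 libraries of 2D FNHCS (left) and the 2 of 3D FNHCS (right) in each panel, with a circle for SN3593 and a square for SN3595. Sftpc overlaps between the cultures, Sftpa1, Lamp3, Lyz1 and the glycolytic genes are lower in 2D FNHCS, and the AT1 genes, Lamp1, Ctsf and Ltbp2 are higher, with Ager, Scnn1g and Cldn18 higher in SN3595 than in SN3593 within 2D FNHCS.

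The change of AT1 genes in flat culture was uneven between the lines. The signed log2 difference, 2D FNHCS over 3D FNHCS, was higher in SN3595 than in SN3593 for 32 of 32 AT1 markers, with medians of 3.05 in SN3595 and 0.81 in SN3593. Over all tested genes it was higher in SN3595 for 6845 of 14416 (47.5%). The same held for 8 of 8 caveolins and cavins, which coat the membrane pits abundant in AT1 cells, and for 10 of 10 annexins. Hopx, a homeodomain protein of AT1 cells, had 208 and 1067 CPM in 2D FNHCS and 475 and 212 CPM in 3D FNHCS, so it was lower in flat culture in SN3593 and higher in SN3595. Cav1, the main caveolin, also differed in sign between the lines, at -1.05 in SN3593 and 3.33 in SN3595. Lists that were lower in flat culture varied in this. The signed difference was higher in SN3595 for 2 of 19 glycolysis genes and 2 of 30 mitosis genes. Medians were -2.47 in SN3595 and -1.64 in SN3593 for glycolysis, and -1.94 in SN3595 and -1.12 in SN3593 for mitosis. The medians of these 2 lists were thus farther from 0 in SN3595. The difference was higher in SN3595 for 10 of 16 secreted host defence genes, 19 of 28 lung transcription factors and 20 of 27 chemokine and cytokine genes. Their medians were nearer to 0 in SN3595, at -2.955, -0.35 and -1.105, against -3.21, -0.72 and -1.56 in SN3593. With 1 library per line and culture, whether the lines differ could not be tested. In the 2D FNHCS library of SN3593, which had the most genes with a count, the amino acid stress genes Asns and Chac1 were also higher than in that of SN3595. Asns had 122 and 36.5 CPM in 2D FNHCS and 17.5 and 19.99 CPM in 3D FNHCS, and Chac1 had 92.2 and 10.9 CPM in 2D FNHCS and 2.82 and 3.12 CPM in 3D FNHCS. Both genes were higher in flat culture in each line and rose (adjusted p = 0.0438 for Asns and 0.0331 for Chac1), but not in every fit without 1 library. The part of the 2D FNHCS library of SN3593 in the difference between the lines was not tested.

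**Figure D3:**
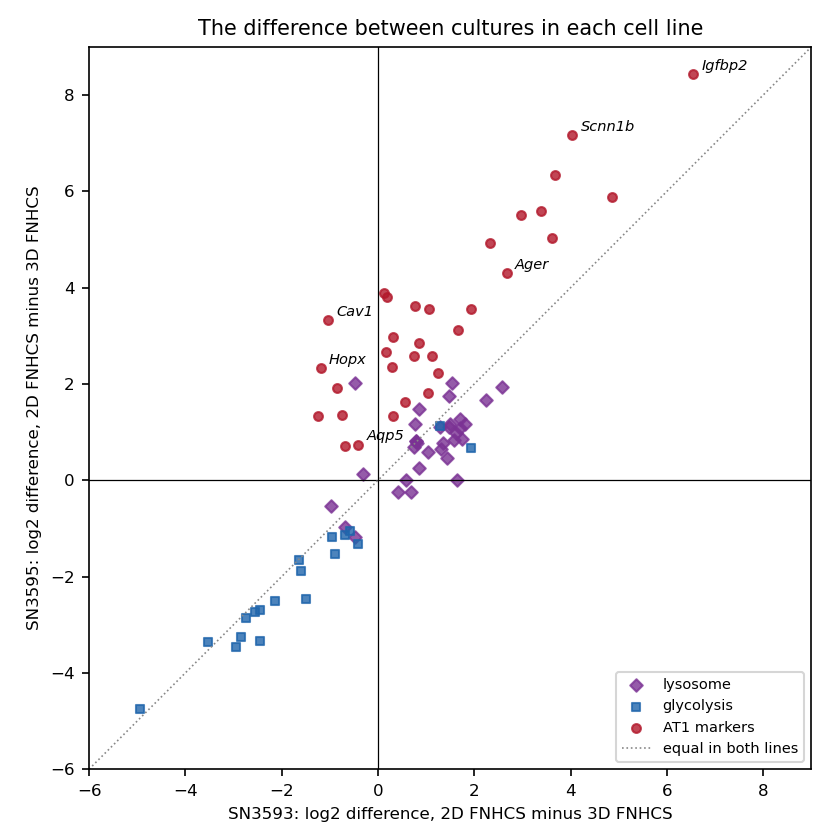
Log2 difference between 2D FNHCS and 3D FNHCS in SN3593 (x axis) against that in SN3595 (y axis) for members of the lysosome, glycolysis and AT1 lists, 1 point a gene, with a dotted line where both lines are equal. The AT1 markers all lie above the dotted line, and most glycolysis genes lie below and to the left of 0 in both lines.

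Cell junctions, adhesion receptors and the basement membrane moved with flat culture. Cldn1, a tight junction claudin, had 19.1 and 10.6 CPM in 2D FNHCS and 0.691 and 0.681 CPM in 3D FNHCS, a log2 difference of 4.42 ± 0.406 (adjusted p = 0.00439). Integrin subunits went both ways. Itgb3, which pairs with alpha v in a receptor for vitronectin and other ligands, had 10.9 and 16.4 CPM in 2D FNHCS and 0.259 and 0.0284 CPM in 3D FNHCS. Itga7, which pairs with beta 1 in a laminin receptor, had 0.518 and 0.258 CPM in 2D FNHCS and 26.9 and 42.4 CPM in 3D FNHCS. Their log2 differences were 6.55 ± 0.832 and -6.48 ± 0.802 (adjusted p = 0.00843 and 0.00784). Itgb6, part of the receptor that activates latent TGF-beta, had 212 and 469 CPM in 2D FNHCS and 36.1 and 47.8 CPM in 3D FNHCS. It lost its call without the SN3593 library in 3D (adjusted p = 0.0902) or the SN3595 one (0.0669). Of 16 tested integrin genes 3 rose and 2 fell, and of 19 tested tight junction genes 6 rose and 2 fell. Without the SN3593 library in 3D, 1 gene rose in each of these lists and 1 integrin gene fell. No tight junction gene fell without the SN3595 library in 3D.

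Chains of collagen IV, the sheet-forming collagen of basement membranes, were higher in flat culture. Col4a1, whose product wraps with that of Col4a2 into the general collagen IV network, had 1113 and 1437 CPM in 2D FNHCS and 162 and 276 CPM in 3D FNHCS (log2 2.54 ± 0.344, adjusted p = 0.00936). Col4a2 had 821 and 1207 CPM in 2D FNHCS and 133 and 247 CPM in 3D FNHCS, with an adjusted p of 0.0138 in the fit of all libraries and 0.0651 without the SN3593 library in 3D. Of 20 tested genes for laminins, collagen IV and the basement membrane 8 rose and none fell, with a median of 1.62, and the 8 held 6 collagen IV chains. Between 3 and 11 rose without 1 library, the fewest without the SN3593 library in 3D.

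The interstitial matrix and its enzymes moved both ways. Sparc, a matrix protein that binds collagen, had 2203 and 1541 CPM in 2D FNHCS and 214 and 51.5 CPM in 3D FNHCS (log2 3.82 ± 0.717, adjusted p = 0.0197). Col5a2, a chain of fibrillar collagen V, had 1.45 and 2.86 CPM in 2D FNHCS and no count in either 3D FNHCS library, which makes it at least 25.6-fold higher at a floor of 3 counts per library. Lox, which crosslinks collagen, had 15.0 and 26.9 CPM in 2D FNHCS and 0.173 and 1.5 CPM in 3D FNHCS. P4ha1, a collagen prolyl hydroxylase that HIF induces, had 130 and 147 CPM in 2D FNHCS and 392 and 407 CPM in 3D FNHCS, and fell by 1.53 ± 0.198 on the log2 scale. Timp2, an inhibitor of matrix metalloproteases, had 2714 and 2667 CPM in 2D FNHCS and 217 and 266 CPM in 3D FNHCS (log2 3.48 ± 0.298, adjusted p = 0.00419). Of 24 tested interstitial matrix genes 5 rose and 3 fell, and 8 rose with the line in the fit. Without the SN3593 library in 3D, 3 rose and 1 fell.

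Contractile genes and targets of YAP and TAZ, the co-activators that respond to cell spreading, were called upward or not at all. Myl9, a myosin light chain, had 8.39 and 7.88 CPM in 2D FNHCS and 0.0864 and 0.199 CPM in 3D FNHCS (log2 5.80 ± 0.666, adjusted p = 0.00673). Myh10, a non-muscle myosin heavy chain, had 31.0 and 35.2 CPM in 2D FNHCS and 7.23 and 9.02 CPM in 3D FNHCS. Ankrd1, a widely used YAP target, had 46.5 and 55.6 CPM in 2D FNHCS and 4.49 and 1.70 CPM in 3D FNHCS (log2 4.04 ± 0.48, adjusted p = 0.00725). Yap1 and Wwtr1, the genes of the co-activators, were not called. Of 33 tested contractile and actin genes 9 rose and none fell, and 16 rose with the line in the fit. Between 2 and 10 rose without 1 library, the fewest without the SN3593 library in 3D. Of 24 tested YAP and TAZ genes 6 rose and none fell, with 1 to 8 rising without 1 library, the fewest without the SN3595 library in 3D. The sign of the difference was opposite in the 2 lines for 10 of the 24, and the median was 0.02 in SN3593 and 0.75 in SN3595. The summed level of this list was 4365 and 6408 CPM in 2D FNHCS and 4932 and 3026 CPM in 3D FNHCS, so it was not higher in flat culture in SN3593.

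Most genes for glucose use were lower in flat culture in both lines. Pgk1, the phosphoglycerate kinase that makes the first ATP of glycolysis, had 138 and 172 CPM in 2D FNHCS and 1590 and 1752 CPM in 3D FNHCS (log2 -3.43 ± 0.249, adjusted p = 0.00293). The glucose carrier Slc2a1 had 29.0 and 33.1 CPM in 2D FNHCS and 224 and 367 CPM in 3D FNHCS. Gapdh, often used as a reference gene, had 1675 and 1714 CPM in 2D FNHCS and 11200 and 12390 CPM in 3D FNHCS, a log2 difference of -2.80 ± 0.296 (adjusted p = 0.00571). Of 19 tested genes for glucose uptake and glycolysis 12 fell and none rose, with a median of -2.03, and 17 of the 19 had no overlap between the cultures. In both lines 17 of the 19 were lower in flat culture and 2 were higher. With the line in the fit 15 fell and 1 rose. The 12 covered hexokinase (Hk2), glucose phosphate isomerase (Gpi1), phosphofructokinase (Pfkl and Pfkp), aldolase (Aldoa and Aldoc), triose phosphate isomerase (Tpi1), phosphoglycerate mutase (Pgam1) and pyruvate kinase (Pkm2) as well. Pkm2 lost its call without the SN3593 library in 3D (adjusted p = 0.057) or the SN3595 one (0.0648) or the SN3593 library in 2D (0.0519), and between 11 and 12 genes of the list were called in the 6 such fits. The summed level of the list was 5410 and 5864 CPM in 2D FNHCS and 26300 and 30910 CPM in 3D FNHCS.

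The step after pyruvate moved too. Slc16a3, which exports lactate, had 0.906 and 0.939 CPM in 2D FNHCS and 150.5 and 319 CPM in 3D FNHCS (log2 -7.99 ± 0.57, adjusted p = 0.00293). The lactate dehydrogenase genes went opposite ways. Ldha, whose subunit favours making lactate, had 482 and 602 CPM in 2D FNHCS and 3563 and 4867 CPM in 3D FNHCS. Ldhb, whose subunit favours the way back to pyruvate, had 244 and 174 CPM in 2D FNHCS and 59.9 and 66.0 CPM in 3D FNHCS, and rose by 1.73 ± 0.214 on the log2 scale (adjusted p = 0.00789, and 0.0543 without the SN3593 library in 3D). Pdk1, a kinase that holds pyruvate back from the tricarboxylic acid cycle, fell as well. It had 23.3 and 23.0 CPM in 2D FNHCS and 216 and 273 CPM in 3D FNHCS (log2 -3.40 ± 0.198, adjusted p = 0.00281). In the tricarboxylic acid cycle 2 of 18 tested genes fell, with a median of -0.08 and summed levels of 2535 and 2750 CPM in 2D FNHCS and 2812 and 2822 CPM in 3D FNHCS. Among 45 tested respiratory chain genes 3 fell and 1 rose, with a median of -0.17, and 7 fell with the line in the fit. Without 1 library none rose and at most 1 fell, and as few as 1 of the tricarboxylic acid cycle genes fell. The share of called genes in both mitochondrial lists was below that over all genes.

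Genes known to be induced by hypoxia were lower in flat culture, with both cultures at ambient oxygen in the incubator. Egln3, the HIF prolyl hydroxylase that HIF itself induces, had 1.19 and 0.376 CPM in 2D FNHCS and 404 and 543 CPM in 3D FNHCS (log2 -9.25 ± 0.924, adjusted p = 0.00485). Bnip3, a mitophagy receptor, had 128 and 131 CPM in 2D FNHCS and 1497 and 1701 CPM in 3D FNHCS (log2 -3.62 ± 0.243, adjusted p = 0.00292). Car9, the carbonic anhydrase that buffers acid outside the cell, had 0.544 and 0.68 CPM in 2D FNHCS and 11.1 and 32.7 CPM in 3D FNHCS. Hif1a, the alpha subunit whose protein rather than RNA is controlled by oxygen, had 382 and 281 CPM in 2D FNHCS and 394 and 394 CPM in 3D FNHCS, and it was not called (adjusted p = 0.451). Epas1, the gene of another HIF alpha subunit, had 3.00 and 3.07 CPM in 2D FNHCS and 15.1 and 15.3 CPM in 3D FNHCS. It fell (log2 -2.32 ± 0.326, adjusted p = 0.00995), but was not called in every fit without 1 library. Of 9 tested genes of the HIF system 4 fell and none rose, and with the line in the fit 5 fell and 1 rose. The vessel signals Apln and Adm fell, with log2 differences of -7.77 ± 0.797 and -4.24 ± 0.585. Of 30 tested hypoxia-induced genes 18 fell and 1, Lox, rose, with a median of -1.84, and 24 of the 30 did not overlap. Between 12 and 16 fell without 1 library, and Lox rose in each such fit. Oxygen in the drops and in the flat cultures was not among the measurements used here.

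**Figure D4:**
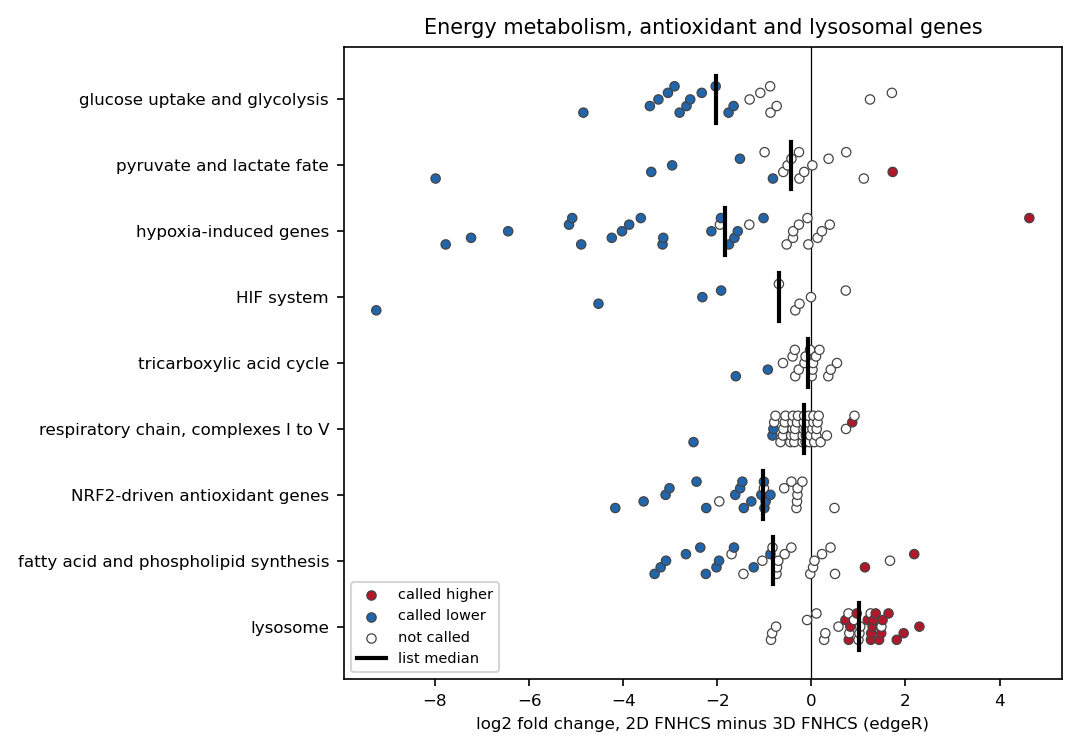
Log2 difference, 2D FNHCS over 3D FNHCS, of each tested member of 9 metabolic and stress lists (1 point a gene, filled where called), with a black bar at the median of the list. The medians are -2.03 for glycolysis, -1.84 for hypoxia-induced genes, -1.04 for NRF2-driven genes, -0.08 for the tricarboxylic acid cycle and 1.02 for the lysosome.

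Promoter windows of 3 genes that fell are shown because they hold ACGTG, letters that HIF can bind. They were picked for holding it. The 2 windows of Pdk1, which fell as well, and a second window of Ldha do not hold it and are not printed. Other letters that HIF may bind were not searched for, so a window without ACGTG is not shown to lack a HIF site. The windows run from 250 bases before to 50 after the start, are from RefSeq on GRCm38.p6, a later build than that of the counts, and are printed 5′ to 3′ on the strand of the gene. Capitals mark ACGTG on either strand (ACGTG or CACGT). The letters CACGTG hold it on both strands at once. Bnip3 lies at chr7:138909457-138909756 on the minus strand, Slc16a3 at chr11:120948817-120949116 on the plus strand and Ldha at chr7:46845554-46845853 on the plus strand.
Bnip3: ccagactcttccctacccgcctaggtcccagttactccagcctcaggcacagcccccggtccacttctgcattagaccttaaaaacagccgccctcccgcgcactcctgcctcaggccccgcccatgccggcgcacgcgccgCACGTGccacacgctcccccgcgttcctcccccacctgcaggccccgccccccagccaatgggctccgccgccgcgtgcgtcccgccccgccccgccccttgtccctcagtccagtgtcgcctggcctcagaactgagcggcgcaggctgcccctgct
Slc16a3: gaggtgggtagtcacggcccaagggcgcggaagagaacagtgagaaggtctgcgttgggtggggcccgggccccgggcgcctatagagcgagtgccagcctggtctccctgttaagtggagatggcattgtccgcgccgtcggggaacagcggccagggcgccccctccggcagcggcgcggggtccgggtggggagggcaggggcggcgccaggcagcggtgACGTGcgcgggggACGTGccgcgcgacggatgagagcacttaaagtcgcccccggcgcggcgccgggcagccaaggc
Ldha: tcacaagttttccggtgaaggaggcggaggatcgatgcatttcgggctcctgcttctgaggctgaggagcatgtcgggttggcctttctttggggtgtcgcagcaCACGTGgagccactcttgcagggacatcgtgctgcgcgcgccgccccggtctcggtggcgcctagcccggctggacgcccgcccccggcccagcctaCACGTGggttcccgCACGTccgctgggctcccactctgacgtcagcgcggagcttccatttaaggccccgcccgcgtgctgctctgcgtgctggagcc
ACGTG was in the window of 9 of 13 hypoxia-induced genes that fell and had a window in the table (69.2%), and of 5 of 8 that were tested and not called. For glycolysis it was in 8 of 12 that fell (66.7%) and 2 of 6 not called. Over all tested genes with a window the share was 28.4%, and over all 27025 genes of the promoter table it was 21.8%. A match is a run of letters and not a measured binding site.

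Genes driven by NRF2, the transcription factor of the antioxidant response, were also lower in flat culture. Gstp1, a glutathione transferase, had 192 and 165 CPM in 2D FNHCS and 764 and 1175 CPM in 3D FNHCS (log2 -2.44 ± 0.294, adjusted p = 0.00754). Slc7a11, which imports cystine for glutathione, had 17.5 and 18.9 CPM in 2D FNHCS and 88.5 and 223 CPM in 3D FNHCS. Tkt, the transketolase of the pentose phosphate path, had 179 and 179 CPM in 2D FNHCS and 568 and 533 CPM in 3D FNHCS (log2 -1.62 ± 0.18, adjusted p = 0.00612). Nfe2l2, the gene of NRF2, had 271 and 276 CPM in 2D FNHCS and 205 and 184 CPM in 3D FNHCS, was higher in both flat libraries, and was not called (adjusted p = 0.0943). Of 26 tested genes 16 fell and none rose, with a median of -1.04. Between 5 and 13 were called without 1 library, fewest without the SN3593 library in 3D.

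Of all the lists, that of the lysosome held the most genes that rose. Lamp1, the main glycoprotein of the lysosomal membrane, had 3517 and 2760 CPM in 2D FNHCS and 738 and 873 CPM in 3D FNHCS (log2 1.96 ± 0.27, adjusted p = 0.00968, and 0.066 without the SN3593 library in 3D). Ctsf, a cysteine protease, had 77.8 and 51.5 CPM in 2D FNHCS and 12.96 and 13.36 CPM in 3D FNHCS (log2 2.30 ± 0.231, adjusted p = 0.00496). Psap, the precursor of activators of lipid breakdown, had 919 and 902 CPM in 2D FNHCS and 327 and 401 CPM in 3D FNHCS. It lost its call without the SN3593 library in 3D (adjusted p = 0.0887) or the SN3595 one (0.052). Tfeb, a transcription factor of lysosomal genes, had 16.1 and 19.1 CPM in 2D FNHCS and 20.1 and 17.4 CPM in 3D FNHCS, and it was not called (adjusted p = 0.767). With the line in the fit 21 of 33 tested lysosomal genes were called higher and 2 lower. Without that term 17 of the 33 rose and none fell, with a median of 1.02, and 29 did not overlap. The count depends on 1 library, since only 1 gene was called without the SN3593 library in 3D, against up to 13 without another library.

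The windows of Ctsf and Lamp1, chosen after their values were seen, are shown because TFEB and its relatives bind CACGTG, which reads the same on both strands and is in capitals. CACGTG also holds ACGTG. Build, strand and window are as for the promoters above. Ctsf lies at chr19:4854915-4855214 and Lamp1 at chr8:13158911-13159210, both on the plus strand.
Ctsf: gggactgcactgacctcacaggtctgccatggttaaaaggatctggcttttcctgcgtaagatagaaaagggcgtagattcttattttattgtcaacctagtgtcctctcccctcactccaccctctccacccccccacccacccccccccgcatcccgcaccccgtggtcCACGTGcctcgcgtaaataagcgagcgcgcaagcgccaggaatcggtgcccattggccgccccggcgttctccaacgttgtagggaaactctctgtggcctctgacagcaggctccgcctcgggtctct
Lamp1: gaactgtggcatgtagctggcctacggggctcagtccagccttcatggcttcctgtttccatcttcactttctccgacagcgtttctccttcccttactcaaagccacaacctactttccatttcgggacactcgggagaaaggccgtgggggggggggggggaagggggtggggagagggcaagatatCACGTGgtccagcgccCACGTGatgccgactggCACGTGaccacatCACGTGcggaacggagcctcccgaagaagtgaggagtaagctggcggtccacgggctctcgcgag
CACGTG was in the window of 6 of 11 lysosomal genes that rose and had a window (54.5%) and of 5 of 12 that were not called (41.7%). The share was 11.3% of tested genes with a window and 8.09% of all genes of the promoter table.

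Several genes of fatty acid and phospholipid synthesis were lower in flat culture. Gpam, which starts glycerolipid synthesis in mitochondria, had 6.65 and 9.32 CPM in 2D FNHCS and 44.5 and 56.9 CPM in 3D FNHCS (log2 -2.67 ± 0.246, adjusted p = 0.00439). Fads1, a fatty acid desaturase, had 41.2 and 60.2 CPM in 2D FNHCS and 205 and 276 CPM in 3D FNHCS. Elovl6, which lengthens palmitate, had 0.777 and 0.68 CPM in 2D FNHCS and 6.88 and 5.56 CPM in 3D FNHCS. Of 29 tested genes 11 fell and 2 rose, with a median of -0.83, and those that rose were Pcyt1a and Pcyt1b of phosphatidylcholine synthesis. Pcyt1a was called in none of the 6 fits without 1 library and Pcyt1b in 1, and between 4 and 10 genes of the list fell in those fits, the fewest without the SN3595 library in 3D. For cholesterol synthesis and uptake 1 of 22 fell and 1 rose, and 5 fell with the line in the fit.

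Mitosis genes were lower in flat culture. Cdk1, the kinase that starts mitosis, had 11.2 and 12.2 CPM in 2D FNHCS and 37.3 and 51.4 CPM in 3D FNHCS (log2 -1.92 ± 0.224, adjusted p = 0.00695). Mad2l1 and Bub1b, of the spindle checkpoint, fell, with log2 differences of -1.83 ± 0.205 and -2.09 ± 0.279, as did Cdc20, which carries out anaphase entry once that checkpoint is met, at -2.68 ± 0.42. Of 30 tested mitosis genes 12 fell and none rose, with a median of -1.67 and 28 without overlap, and 19 fell with the line in the fit. Between 5 and 16 fell without 1 library, the fewest without the SN3595 library in 3D. Of 30 tested DNA replication genes 7 fell, with a median of -0.62 and 0 to 6 called without 1 library, none without the SN3593 library in 3D. Among CDK inhibitors and p53 targets, 6 of 25 rose and 1 fell, and 10 rose with the line in the fit. The 1 that fell was the CDK inhibitor gene Cdkn2d (log2 -1.66 ± 0.371), which was called again in 1 of the 6 fits without 1 library. Ccng1, a p53 target, had 616 and 670 CPM in 2D FNHCS and 279 and 256 CPM in 3D FNHCS. It lost its call without the SN3593 library in 3D (adjusted p = 0.0716) or the SN3595 one (0.0745), and between 0 and 5 genes of that list rose without 1 library, none without the SN3593 library in 3D.

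Some feedback genes of growth factor signalling were lower. Spry4 and Dusp5, which dampen the MAP kinase path below FGF receptors, had 3.75 and 2.60 CPM (Spry4) and 3.11 and 3.83 CPM (Dusp5) in 2D FNHCS. In 3D FNHCS they had 22.6 and 27.1 CPM (Spry4) and 32.1 and 50.2 CPM (Dusp5). Their log2 differences were -2.97 ± 0.284 and -3.57 ± 0.401 (adjusted p = 0.0046 and 0.00636). Of 19 tested FGF and MAP kinase feedback genes 6 fell and 2 rose, and without the SN3593 library in 3D 3 fell and none rose. The EGF family ligand Nrg1 had 17.9 and 44.4 CPM in 2D FNHCS and 2.02 and 1.65 CPM in 3D FNHCS, and rose by 4.09 ± 0.5 on the log2 scale (adjusted p = 0.00771).

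The Id genes, targets of BMP signalling, were lower, and the gene of a BMP antagonist was higher. Id1 had 9.42 and 7.77 CPM in 2D FNHCS and 140 and 135 CPM in 3D FNHCS (log2 -4.0 ± 0.211, adjusted p = 0.00266). Id3 had 13 and 6.59 CPM in 2D FNHCS and 86.8 and 74.4 CPM in 3D FNHCS, and the ligand Bmp4 had 30.9 and 32.9 CPM in 2D FNHCS and 223 and 119 CPM in 3D FNHCS. Nog, which encodes the secreted BMP antagonist noggin, had 8.91 and 13 CPM in 2D FNHCS and 0.662 and 0.369 CPM in 3D FNHCS (log2 4.40 ± 0.366, adjusted p = 0.00368). Of 24 tested BMP genes 7 fell and 4 rose, and without the SN3593 library in 3D 4 fell and 1 rose. In the TGF-beta group, Ltbp2, a relative of the latent TGF-beta binders found on elastic fibres, had 190 and 168 CPM in 2D FNHCS and 0.547 and 0.312 CPM in 3D FNHCS (log2 8.69 ± 0.478, adjusted p = 0.00266). The activin subunit gene Inhbb had 12.7 and 19.1 CPM in 2D FNHCS and 125 and 114 CPM in 3D FNHCS. Of 22 tested TGF-beta genes 5 rose and 2 fell, 4 fell with the line in the fit, and 2 rose without the SN3593 library in 3D.

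Wnt ligands rose while a feedback gene fell. Wnt7a had 98.4 and 156 CPM in 2D FNHCS and 14.8 and 11.5 CPM in 3D FNHCS (log2 3.27 ± 0.382, adjusted p = 0.00695). Wnt11 had 104 and 45.0 CPM in 2D FNHCS and 1.44 and 0.681 CPM in 3D FNHCS, and Wnt9a rose by 3.62 ± 0.372 on the log2 scale. Nkd1, an inhibitor induced by Wnt signalling, had 2.28 and 2.32 CPM in 2D FNHCS and 38.8 and 28.0 CPM in 3D FNHCS (log2 -3.86 ± 0.356, adjusted p = 0.00439). Of 27 tested Wnt genes 5 rose and 2 fell, 5 fell with the line in the fit, and 3 rose without the SN3593 library in 3D. The Notch feedback gene Nrarp fell by 3.40 ± 0.401, and the non-canonical Notch ligand Dlk1 had 0.777 and 1.62 CPM in 2D FNHCS and 273 and 240 CPM in 3D FNHCS. In the IGF system Igfbp7 rose by 2.89 ± 0.404 and Igfbp4 fell by 6.75 ± 0.957 on the log2 scale.

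Immediate early and inflammatory genes were lower. Fos, a partner of Jun in the AP-1 factor, had 158 and 95.7 CPM in 2D FNHCS and 1735 and 1420 CPM in 3D FNHCS (log2 -3.64 ± 0.325, adjusted p = 0.00439). Zfp36, which shortens the life of cytokine RNA, had 124 and 121 CPM in 2D FNHCS and 728 and 613 CPM in 3D FNHCS. Socs3, the brake on STAT3 signalling, had 10.2 and 8.80 CPM in 2D FNHCS and 78.4 and 75.1 CPM in 3D FNHCS. Of 23 tested immediate early genes 7 fell and none rose, with a median of -0.76, and with the line in the fit 11 fell and 2 rose. Cxcl1, a neutrophil chemokine, had 23.0 and 36.9 CPM in 2D FNHCS and 190 and 290 CPM in 3D FNHCS (log2 -3.00 ± 0.404, adjusted p = 0.00932). Of 27 tested chemokine and cytokine genes 9 fell and 1 rose, and 5 fell without the SN3593 library in 3D.

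Genes for ion transport moved both ways, and annexins and S100 proteins rose or were not called. Ano1, a calcium-activated chloride channel, had 556 and 923 CPM in 2D FNHCS and 50.6 and 31.1 CPM in 3D FNHCS (log2 4.18 ± 0.476, adjusted p = 0.00666). Kcnq1, a potassium channel subunit, had 2.07 and 1.74 CPM in 2D FNHCS and 52.5 and 56.4 CPM in 3D FNHCS (log2 -4.84 ± 0.364, adjusted p = 0.00318). Slc26a9, an anion transporter, had 18.9 and 20.4 CPM in 2D FNHCS and 93.5 and 212 CPM in 3D FNHCS. Of 25 tested transport genes 4 rose and 6 fell, with 1 rising without the SN3593 library in 3D and 3 falling without the SN3595 library in 2D. Anxa5, which binds phospholipid when calcium is high, had 1572 and 1891 CPM in 2D FNHCS and 395 and 374 CPM in 3D FNHCS (log2 2.17 ± 0.237, adjusted p = 0.00606), and 5 of 10 tested annexins rose, or 1 without the SN3593 library in 3D. S100a6, a calcium-binding protein, had 336 and 558 CPM in 2D FNHCS and 10.2 and 9.70 CPM in 3D FNHCS (log2 5.49 ± 0.384, adjusted p = 0.00293).

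Some of the largest changes lay outside the lists, in genes at very low counts in 1 culture. Npy2r, a receptor for neuropeptide Y, had 0.57 and 0.188 CPM in 2D FNHCS and 158 and 239 CPM in 3D FNHCS (log2 -9.04 ± 0.579, adjusted p = 0.0029). Ntn1, the guidance molecule netrin 1, had 30.2 and 41.0 CPM in 2D FNHCS and 0.403 and 0.312 CPM in 3D FNHCS (log2 6.63 ± 0.431, adjusted p = 0.00291). Gjb1, a gap junction connexin, and Hgfac, the protease that activates hepatocyte growth factor, fell, with log2 differences of -7.35 ± 0.677 and -7.71 ± 0.692. Akap2, an anchor for protein kinase A, rose by 6.35 ± 0.515. Popdc3, of a family of membrane proteins known from muscle, had 2 counts over both 3D FNHCS libraries, and its ratio of 2D FNHCS over 3D FNHCS was 479 with a counting interval of 132 to 3964. Tmem213, a small membrane protein, had 1 count over both 2D FNHCS libraries, and its ratio of 3D FNHCS over 2D FNHCS was 2953 with an interval of 530 to 116700. The intervals (exact, 95%) cover counting error only.

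Several lists held few calls. No MHC class II gene of 8 tested was called by edgeR, against 4 that fell with the line in the fit. The unadjusted p was below 0.05 for 2 of the 8, while DESeq2 called 1 and limma-voom 2, and the median was -1.07. Of 27 interferon-stimulated genes Irf1 was lower (adjusted p = 0.0392), and it was called in none of the 6 fits without 1 library. Markers of other cell types were low except for some leukocyte and mesothelial values. For fibroblasts 3 of 14 markers passed the filter and none was called, with a summed level of 7.72 and 1.88 CPM in 2D FNHCS and 1.56 and 0.907 CPM in 3D FNHCS. For endothelium 3 of 11 passed, and Egfl7 and Flt1 fell, with a sum of 13.98 and 10.4 CPM in 2D FNHCS and 44.7 and 62.7 CPM in 3D FNHCS. For airway epithelium 8 of 18 passed and Muc5b and Spdef were called lower (again in 3 and 0 of the 6 fits without 1 library), with a sum of 9.71 and 47.7 CPM in 2D FNHCS and 37.1 and 56.5 CPM in 3D FNHCS. For gastrointestinal epithelium 4 of 16 passed and Lgals4 was called lower (again in 1 of those 6 fits), with a sum of 2.90 and 1.38 CPM in 2D FNHCS and 5.88 and 5.42 CPM in 3D FNHCS. For leukocytes 5 of 12 passed and Cd68 was called lower (again in 3 of those fits), with a sum of 66.5 and 131 CPM in 2D FNHCS and 121 and 1586 CPM in 3D FNHCS, and Lyz2 made up nearly all of the last value. For the mesothelium Msln had 6.91 and 307 CPM in 2D FNHCS and 4.87 and 12.2 CPM in 3D FNHCS. Among the 4 FNHCS libraries the 2D FNHCS library of SN3595 thus stood apart. The part of other cell types in the results was not tested.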

How the data were processed

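PolyA RNA from 6 libraries was measured, 2 in each of 3 conditions, and groups were taken from the treatment labels. The authors deposited expected counts (reads per gene as estimated by a model, fractions allowed) for 23224 genes. Per the submitters' processing notes the tools were RSEM 1.3.1 and Bowtie 1.2.3, on build mm9. Annotation, options and use of strand are each not given in the sources used here. Genes that overlap or lie antisense, and close relatives, are therefore uncertain one by one. Dates stood in place of 25 symbols, 19 of them past the filter, and these are not named.

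Expected counts were rounded. The test was edgeR 4.0.16 (R 4.3.3): TMM scaling, its default filter (14416 genes kept, 8808 left out), the quasi-likelihood test and Benjamini-Hochberg adjustment at 0.05, over all 6 libraries with a term per group and 3 residual degrees of freedom. SE is the size of the log2 fold change over the root of the F statistic. The floor for 0 counts was 3 counts per library, and it covers counting error only, as do the intervals. The scripts were tested on simulated data. DESeq2 1.42.0, limma-voom (limma 3.58.1), other scalings and filters, the line as a block, the 4 FNHCS libraries alone and leaving out each library were alternatives.

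The lines pair the libraries, since same-named libraries are the same cell line. Deviations from the group means correlated at 0.4216 between the 2D FNHCS and 3D FNHCS pairs, and at 0.3795 and 0.2445 between 2D FBS and those groups. Libraries of 1 condition differed by far more than sampling noise (chi-square of 148.4 to 188 per degree of freedom) and were kept apart.

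The 52 gene lists hold 1079 genes, of which 1076 had a row, 15 under another symbol. The members and lists were chosen with earlier results of these data known. The named genes are set markers (Sftpc, Sftpb, Sftpa1, Sftpd, Nkx2-1, Ager, Hopx, Pdpn and Aqp5), up to 3 called genes each way per list with at least 10 CPM, the 12 largest changes each way, and 8 genes of opposite sign in the lines. Other list members may be named with their values. Promoter windows were searched for ACGTG and CACGTG on both strands.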

Additional observations from a re-analysis of the deposited data

Results flagged for a closer look

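For 8 genes the difference between 2D FNHCS and 3D FNHCS had opposite signs in the 2 lines. They are those with the largest such opposition among genes averaging at least 10 CPM. Whether the lines differ was not tested, since each line had 1 library per culture. The values below are log2 differences, 2D FNHCS over 3D FNHCS.

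Membrane and AT1 genes were lower in flat culture in SN3593 and higher in SN3595. Hopx, a homeodomain protein of AT1 cells, was at -1.19 in SN3593 and 2.33 in SN3595. Cav1, the main caveolin, was at -1.05 in SN3593 and 3.33 in SN3595. Sdpr, a cavin of the same membrane pits, was at -2.53 in SN3593 and 3.22 in SN3595. Tns1, which ties integrins to actin, was at -1.47 in SN3593 and 1.59 in SN3595.

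The other genes were higher in flat culture in SN3593 and lower in SN3595. Slc7a5, a carrier of large neutral amino acids, was at 1.44 in SN3593 and -1.55 in SN3595. Rasd2, a small GTPase, was at 1.67 in SN3593 and -1.51 in SN3595. Tspan7, a tetraspanin, was at 1.19 in SN3593 and -1.05 in SN3595. The pseudogene Pisd-ps3, whose reads can be shared with its parent gene and copies, was at 1.02 in SN3593 and -1.05 in SN3595.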

How the results depend on the processing

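The number of genes called depended on the libraries in the fit more than on the scaling. With the replicate block for the line 4181 genes were called (2046 higher, 2135 lower), with DESeq2 4210 (2086 higher, 2124 lower), and with limma-voom 2643. Scaling by library size alone gave 1885 higher. Without a filter on low counts 2507 of 21702 genes were called, and with the 4 FNHCS libraries alone 1896. Leaving out 1 library gave 565 to 1869 calls, 184 to 1073 higher and 381 to 1026 lower. Of 172 named genes, all kept their direction and side of the threshold with DESeq2, with its size factors and with upper-quartile factors. The replicate block added Pdpn (adjusted p = 0.047) and lost none of the named genes, and limma-voom lost 11. Leaving out the SN3593 or the SN3595 library in 3D lost 67 and 64 of them. The cause was not tested, although fits without a library have fewer residual degrees of freedom.

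Directions turned for genes that differ between the lines or lie near 0, given as log2 differences. Over the fits that left out 1 library, Nkx2-1 ran from -0.96 to 0.031, Hopx from -0.72 to 1.63, Pdpn from -0.22 to 6.16, Aqp5 from -0.36 to 0.70, Sdpr from -2.13 to 2.61, Tns1 from -1.52 to 1.64 and Cav1 from -1.80 to 3.82. Rasd2 ran from -1.70 to 1.83, Slc7a5 from -1.24 to 1.02, Tspan7 from -1.49 to 1.53 and Pisd-ps3 from -0.64 to 0.71. Slc7a5 was also at -0.057 with the replicate block in the 4 FNHCS libraries alone and -0.091 with limma-voom, and Pisd-ps3 at 0.061 with library size alone.

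With 2 libraries per culture, a gene that was not called is not shown to be unchanged. Genes near the floor of 3 counts per library carry wide errors.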
